A study of Mus musculus with 6 samples.

Results

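Plvap-positive endothelial cells were examined in single-cell RNA sequencing libraries of mouse kidney, with 1 library from each of 3 sham and 3 DOCA-salt animals. They were chosen by the UMI counts of their genes, so the genes used below describe them and were not tested. A barcode was taken as such a cell when it held at least 1000 unique molecular identifiers (UMIs, counted RNA molecules) with at most 50% of them from mitochondrial genes. It also needed at least 3 of the 7 endothelial genes Pecam1, Cdh5, Flt1, Kdr, Emcn, Egfl7 and Ptprb, at least 1 UMI of Plvap and 0 UMIs of Ehd3, Ptprc, Col1a1 and C1qa. The proximal tubule genes Lrp2, Slc34a1, Slc5a12 and Slc22a6 together could hold no more than 0.2% of its UMIs. These limits left 1300 cells of the 76774 barcodes in all, with 200, 226 and 236 cells in the sham mice and 193, 226 and 219 cells in the DOCA-salt mice.

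All mice were male C57BL/6 mice, 8 to 10 weeks old when purchased, before the surgery and treatment. No group carried a transgene. The DOCA-salt mice lost the left kidney and then received a 50 mg pellet of deoxycorticosterone acetate (DOCA, a mineralocorticoid hormone) with 1% NaCl as drinking water for 21 days. The sham mice had a sham operation and normal water. Kidney removal, hormone and salt were therefore given together, and their effects cannot be told apart. The kidneys were dissociated with collagenase and the endothelial cells were not sorted.

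Plvap encodes the protein that forms the diaphragms closing the fenestrae and caveolae of endothelial cells. In the kidney these diaphragms are typical of the peritubular capillaries and of the ascending vasa recta, the vessels that take up the fluid the tubules give back. The capillaries of the glomerulus have open fenestrae and express Ehd3, and the descending vasa recta have a continuous wall and express the water channel Aqp1 and the urea transporter Slc14a1. Capillary endothelial cells lie on a basement membrane of type IV collagen, laminins and nidogens, take up fatty acids from the blood, and can divide and sprout when a tissue is remodelled.

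The Plvap-positive cells carried the endothelial genes at high levels, as the limits required, so the following values are a description. Flt1, a receptor for vascular endothelial growth factor, stood at 1386 to 1983 CPM (a gene's UMIs as a rate among all UMIs of the cells, scaled to 1e6) over the 6 mice, and Emcn, an endothelial sialomucin, at 1441 to 2098 CPM. Kdr, the main growth factor receptor of endothelial cells, stood at 368 to 620.5 CPM and Plvap itself at 686 to 1059 CPM. In the barcodes with fewer than 3 endothelial genes, Flt1 stood at 1.54 to 9.07 CPM and Plvap at 0.628 to 8.72 CPM. Gata5, a factor of glomerular endothelium, was found in 1 of the 1300 cells. Genes of other renal vessels were found in many of them. A UMI of Aqp1, Slc14a1 or Scin, genes high in descending vasa recta, was present in 29.2% to 45% of the cells of a sham mouse and in 31.1% to 34.5% of those of a DOCA-salt mouse. Such a UMI does not by itself place a cell in that vessel, since an Aqp1 UMI was present in 44.0% and 44.1% and a Scin UMI in 13.6% and 15.5% of the barcodes with fewer than 3 endothelial genes (sham and DOCA-salt), which were deeper (median 7140 to 10802 UMIs). After every cell was reduced to 1000 UMIs, Aqp1 was present in 24.7% and 15.1% of the Plvap-positive cells and in 10.9% and 10.2% of those barcodes, and Scin in 15.9% and 10.4% against 2.92% and 3.08%. A UMI of Sox17 or Gja5, listed here as arterial genes, was present in 55.3% to 63.5% and in 54.9% to 57.5%. Gja5 by itself was found in only 8.68% to 15.5% of the cells of a mouse. Sox17 was not particular to 1 kind of endothelial cell here. Its mean was 534 CPM in the Plvap-positive cells, 425 CPM in endothelial cells with Ehd3 and no Plvap, and 542 CPM in those with neither. Such a UMI therefore does not make a cell arterial. A Sox17 UMI was present in 0.845% and 1.20% of the barcodes with fewer than 3 endothelial genes. Whether each cell is of a capillary was not tested, and the cells are called Plvap-positive endothelial cells here.

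At the edge of the rule, 254 of the cells had exactly 1 Plvap UMI, with a median of 5574 UMIs per cell, and 62.2% of them had a UMI of Igfbp3 and 74.8% of Sox17. Just outside it lay 475 endothelial cells with neither Plvap nor Ehd3, with a median of 4800 UMIs, of which 45.7% had a UMI of Igfbp3 and 73.3% of Sox17. Only 30 cells had exactly 3 of the endothelial genes, and 23 barcodes were left out with 2.

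The summed depth was 1378112 to 1982701 UMIs per mouse, and the median cell held 3579 to 4378 UMIs in the sham mice and 4685 to 6557 UMIs in the DOCA-salt mice, so the groups did not overlap in depth. The median share of mitochondrial UMIs was 5.66% to 10.98% in the sham mice and 4.90% to 6.93% in the DOCA-salt mice. Of the 1300 barcodes, 0 occurred in more than 1 library, against 706 of all barcodes. In sham mouse 2, 1 cell held 1882 hemoglobin UMIs, and in sham mouse 3, 1 cell held 864 UMIs of pericyte and smooth muscle genes. Smaller runs of the same kind occurred in DOCA-salt mice 2 and 3, where 1 cell held 100 and 67 pericyte UMIs, and most lymphatic marker UMIs of 4 mice came from 1 cell each.

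The share of Plvap-positive cells overlapped between the groups among the barcodes of all cell types. It did not overlap among the endothelial barcodes, but there its direction turned with the Ehd3 limit. They made up 2.25%, 3.14% and 2.72% of the barcodes that passed the limits on UMIs and mitochondrial share in the sham mice, and 2.22%, 2.48% and 2.63% in the DOCA-salt mice. The means were 2.70 ± 0.444% and 2.44 ± 0.210% (SD, n = 3 each, exact permutation test, two-sided, p = 0.4). With 3 mice against 3, this test cannot give a p below 0.1. Of the barcodes taken as endothelial by the same limits, they made up 42.7%, 46.6% and 47.97% in the sham mice and 35.7%, 33.3% and 34.9% in the DOCA-salt mice, a total that includes the cells with both Plvap and Ehd3 described next. The count depended on the limits, which took out unequal numbers of cells in the groups. Each limit was counted among barcodes that passed all the others. The Col1a1 limit took out 1, 2 and 0 sham cells and 18, 26 and 22 DOCA-salt cells. With Col1a1 UMIs allowed, the share was 2.26%, 3.16% and 2.72% in the sham mice and 2.43%, 2.77% and 2.90% in the DOCA-salt mice. The proximal tubule limit took out 76 of 302 cells in DOCA-salt mouse 2 and 6.31% to 9.50% in the other mice. The Ehd3 limit took out the most. Cells with UMIs of both Plvap and Ehd3 numbered 159, 136 and 120 in the sham mice and 243, 356 and 313 in the DOCA-salt mice, or 1.69 ± 0.268% and 3.49 ± 0.606% of the same barcodes. As Plvap and Ehd3 chose the cells, this is a description with no test. The cells with both genes were deeper in the DOCA-salt mice, with a median of 8463, 9284 and 7810 UMIs against 4383, 3591 and 4239 in the sham mice, and these counts were not thinned. With these cells counted in, the share of Plvap-positive cells was 4.04%, 5.02% and 4.10% in the sham mice and 5.01%, 6.39% and 6.40% in the DOCA-salt mice. Of the endothelial barcodes they then made up 76.7%, 74.6% and 72.4% in the sham mice and 80.7%, 85.7% and 84.7% in the DOCA-salt mice. The groups again did not overlap, in the opposite direction. A UMI of Plvap was also found in 0.585% to 2.11% of the barcodes with fewer than 3 endothelial genes in the sham mice and in 3.89% to 8.49% in the DOCA-salt mice. The part of depth and of free RNA in the count of cells with both genes was not tested.

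**Figure D1:**
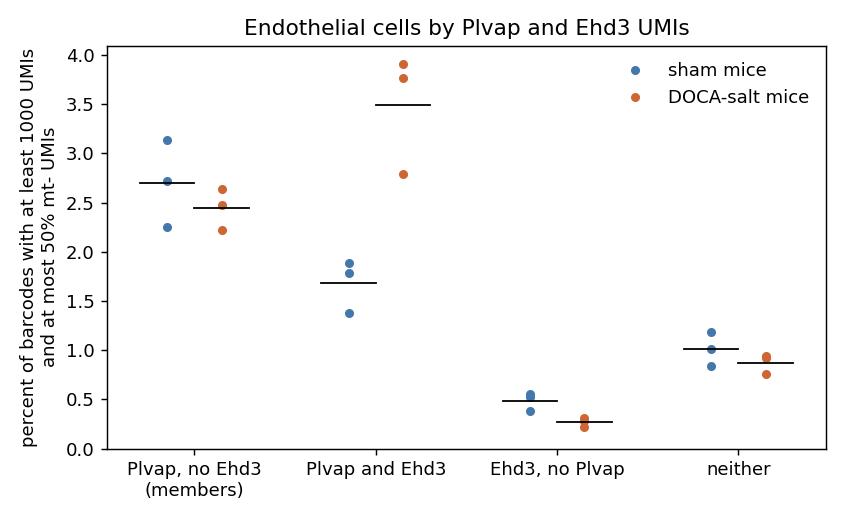
Each point is a mouse and the black lines are group means; the y axis gives endothelial cells as a percent of barcodes with at least 1000 UMIs and at most 50% mitochondrial UMIs, by the presence of Plvap and Ehd3 UMIs. The Plvap-positive cells without Ehd3 overlap between the groups, whereas all 3 DOCA-salt mice lie above the sham mice in the cells with both genes.

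To ask which genes these cells expressed differently in the DOCA-salt kidney, UMIs were summed per mouse and compared with edgeR's quasi-likelihood test, with p-values adjusted by the Benjamini-Hochberg method over all 10387 genes tested. In DOCA-salt mice 171 genes were higher and 69 were lower at an adjusted p under 0.05, which is 1.65% and 0.664% of the genes tested. The values of the groups did not overlap for 18.3% of the genes. The rises included genes of cell division, of the basement membrane and of fatty acid handling. The falls included Stmn2, Calca, Cyp26b1, the elastic fibre gene Eln and the mineralocorticoid receptor gene Nr3c2. The number of calls rested on single mice. Without sham mouse 2 there were 323 higher and 226 lower genes, and without DOCA-salt mouse 3 there were 61 and 13. Without sham mouse 1 the counts were 89 and 60, without sham mouse 3 they were 84 and 29, and without DOCA-salt mouse 1 they were 114 and 35. For this comparison, 43 genes that passed the test were named by the rules given under the processing. Of these 43 genes, 18 passed it in all 6 fits that left out a mouse, and none changed direction under any alternative. Other called genes named below are not among the 43. With each cell thinned to 1000 UMIs, 16 of the 43 genes passed the test and 11 were too low to be tested. The 16 that no longer passed were Ephb1, Aplnr, Stmn1, Fbln2, Nrp2, Nr2f2, Ephb4, Nos3, Gpihbp1, Nid1, Tgfb2, Smad1, Nr3c2, Entpd1, Egr1 and Ptprr, with adjusted p-values of 0.0535 to 0.806. Among them the log2 change shrank most for Nrp2 (0.89 to 0.21), Ptprr (-0.81 to -0.31) and Entpd1 (0.66 to 0.33). It stayed close for Tgfb2 (-1.32 and -1.31), Nr3c2 (-0.84 and -0.78), Ephb4 (0.72 and 0.67) and Nos3 (-0.75 and -0.67). The others lay between.

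Among the fatty acid genes, Fabp5, a carrier of fatty acids inside the cell, showed the smallest adjusted p of the named genes together with Vwa1. It lies on chromosome 3 (GRCm39, chr3:10077602-10081674, plus strand). Fabp5 stood at 89.2, 134 and 86.0 CPM in the sham mice and 560.2, 544 and 521 CPM in the DOCA-salt mice. The DOCA-salt values were close to each other and all above the highest sham value (log2 change 2.39, standard error 0.18, adjusted p = 0.000148). After each cell was reduced to 1000 UMIs to even out the depth, a Fabp5 UMI was present in 12.9 ± 2.43% of the sham cells and 33.4 ± 0.853% of the DOCA-salt cells (SD, n = 3 each). In the barcodes with fewer than 3 endothelial genes its mean was 18.0 CPM in the sham mice and 27.9 CPM in the DOCA-salt mice. Fabp4, a related carrier typical of capillary endothelium, stood at 2864, 2634 and 3267 CPM in the sham mice and 6362, 4728 and 5996 CPM in the DOCA-salt mice. The groups did not overlap (log2 change 0.94, standard error 0.18, adjusted p = 0.0183), but the adjusted p was 0.0824 without sham mouse 1, 0.107 without DOCA-salt mouse 1 and 0.101 without DOCA-salt mouse 3. Gpihbp1, which holds lipoprotein lipase on the capillary wall, stood at 180.4, 124 and 192 CPM in the sham mice and 358, 376 and 325 CPM in the DOCA-salt mice. It rose (log2 change 1.07, standard error 0.18, adjusted p = 0.0102), and without DOCA-salt mouse 3 its adjusted p was 0.0530. Of the 14 genes listed for fatty acid uptake 11 could be tested, and 3 rose and none fell. The median log2 change of the 11 was 0.01, against -0.00 for all genes tested. The fatty acid receptor Cd36, the first gene of that list, stood at 37.6, 58.1 and 57.1 CPM in the sham mice and 58.2, 40.9 and 57.3 CPM in the DOCA-salt mice. Its groups overlapped (log2 change 0.01, adjusted p = 0.991). Pparg, a factor that drives Fabp4 in other cells, stood at 167, 99.4 and 111 CPM in the sham mice and 70.0, 83.2 and 72.8 CPM in the DOCA-salt mice, which missed the threshold (log2 change -0.75, adjusted p = 0.0777).

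Many genes of the capillary basement membrane rose. Of 27 listed matrix genes 25 could be tested, and 11 rose and none fell, with a median log2 change of 0.78. The list was chosen with earlier results of these data known and leaves out other matrix genes described below. Among those, Vwa1 rose, and Eln (log2 change -1.66), Fbln2 (-1.41) and Cthrc1 (-1.43) were called lower. Col4a1 and Col4a2 encode the chains of the common type IV collagen and overlap at their ends in the genome (GRCm39, chr8:11248423-11362826 on the minus strand and chr8:11362471-11499287 on the plus strand). Col4a1 stood at 337, 329 and 316 CPM in the sham mice and 743, 985 and 917 CPM in the DOCA-salt mice. Col4a2 stood at 220.0, 167 and 168 CPM in the sham mice and 424, 581 and 509.6 CPM in the DOCA-salt mice. Both rose by a like amount (Col4a1 log2 change 1.41, standard error 0.15, adjusted p = 0.00176, and Col4a2 log2 change 1.44, standard error 0.17, adjusted p = 0.00257). In every DOCA-salt mouse each gene was above its highest sham value. Both passed the test in every alternative run. Nid1, a nidogen that links laminin to type IV collagen, stood at 42.9, 47.9 and 48.2 CPM in the sham mice and 129.7, 122 and 129.5 CPM in the DOCA-salt mice. It rose (log2 change 1.44, standard error 0.14, adjusted p = 0.00149), but did not pass the test after thinning (log2 change 0.88, adjusted p = 0.147). Nid2, the second nidogen, moved from 18.9 ± 6.33 CPM to 59.1 ± 6.87 CPM (SD, n = 3 each, log2 change 1.64, adjusted p = 0.00482). Lamb1, a laminin chain, was low in the sham mice. It stood at 18.1, 12.3 and 7.57 CPM in the sham mice and 38.1, 62.5 and 65.7 CPM in the DOCA-salt mice (log2 change 2.12, standard error 0.30, adjusted p = 0.00482). The laminin chains Lama4 (log2 change 1.29, adjusted p = 0.00755, and 0.0566 without DOCA-salt mouse 3) and Lamc1 (log2 change 0.96, adjusted p = 0.0122, and 0.0680 to 0.0945 without sham mouse 1, sham mouse 3 or DOCA-salt mouse 3) rose as well, while Lama5 (log2 change -0.14, adjusted p = 0.787) and Lamb2 (log2 change -0.41, adjusted p = 0.365) did not pass the test. Col15a1, a collagen at the outer side of capillary basement membranes, stood at 29.5, 49.3 and 18.6 CPM in the sham mice and 101, 137 and 129.5 CPM in the DOCA-salt mice (log2 change 1.92, standard error 0.26, adjusted p = 0.00462). The remaining calls were Serpinh1, the collagen chaperone (log2 change 1.21, adjusted p = 0.0163), Sparc, a binder of collagen (log2 change 0.85, adjusted p = 0.0274), and its relative Sparcl1 (log2 change 1.05, adjusted p = 0.00755). Serpinh1 passed the test only without sham mouse 2 or DOCA-salt mouse 2 (0.0693 to 0.0986 without another mouse), Sparc only without sham mouse 2 (0.0597 to 0.0939), and Sparcl1 failed it without DOCA-salt mouse 3 (0.0537). Without the cells holding a Sox17 or Gja5 UMI, Col4a1 and Col4a2 were the only ones of the 11 that passed the test. There Lamb1 had a log2 change of 1.14 (adjusted p = 0.211), Col15a1 of 0.91 (0.304) and Nid1 of 0.89 (0.184), and the adjusted p of the other 6 was 0.0767 to 0.808. Hspg2, which encodes perlecan (log2 change 0.70, adjusted p = 0.0812), was higher in every DOCA-salt mouse and Mgp, the matrix Gla protein gene (log2 change -1.71, adjusted p = 0.0850), lower in every one, and neither passed the test. Several matrix genes also rose in the barcodes with fewer than 3 endothelial genes, where the mean of Col15a1 was 0.584 CPM in the sham mice and 26.1 CPM in the DOCA-salt mice and that of Col4a1 90.3 and 184 CPM. The part of such RNA in the values above was not tested. The mean levels of Col4a1 and Col4a2 in Plvap-positive cells were higher than those in these barcodes in both groups.

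Vwa1, a matrix protein that binds perlecan, had the largest rise among the named genes outside the cell cycle. The gene lies at chr4:155852606-155859155 on the minus strand (GRCm39), opposite the transcript Atad3aos. It stood at 8.72, 9.43 and 11.7 CPM in the sham mice and 70.0, 99.4 and 81.8 CPM in the DOCA-salt mice (log2 change 3.06, standard error 0.23, adjusted p = 0.000148). In the barcodes with fewer than 3 endothelial genes it moved the other way, from a mean of 13.1 CPM to 7.06 CPM (log2 change -0.99, adjusted p = 0.0179, edgeR). Lrg1, a secreted glycoprotein that acts on TGF-beta signalling in vessels, stood at 12.7, 8.71 and 13.8 CPM in the sham mice and 71.4, 58.0 and 47.7 CPM in the DOCA-salt mice (log2 change 2.30, standard error 0.25, adjusted p = 0.00176). Its level in the other barcodes was 2.21 and 1.77 CPM. Ephb1, a receptor for ephrin-B ligands, stood at 16.8, 37.0 and 15.8 CPM in the sham mice and 79.0, 110.0 and 124 CPM in the DOCA-salt mice (log2 change 2.17, standard error 0.29, adjusted p = 0.00393), and shares its strand with an overlapping transcript, Gm29388. Without the cells holding a Sox17 or Gja5 UMI its log2 change was 1.23 (adjusted p = 0.169). Nav3, a protein of the growing ends of microtubules, stood at 31.5, 29.8 and 10.3 CPM in the sham mice and 61.0, 94.3 and 134 CPM in the DOCA-salt mice (log2 change 2.01, standard error 0.35, adjusted p = 0.0115), and its adjusted p was 0.0731 without DOCA-salt mouse 3. D17H6S56E-5 moved from 9.07 ± 4.88 CPM to 49.8 ± 9.47 CPM (log2 change 2.44, adjusted p = 0.00462), but without the cells that held a cell cycle UMI its adjusted p was 0.717. Spp1, which encodes osteopontin, stood at 193, 183 and 162 CPM in the sham mice and 1251, 479 and 1464 CPM in the DOCA-salt mice (log2 change 2.55, standard error 0.33, adjusted p = 0.00373). In the barcodes with fewer than 3 endothelial genes Spp1 was higher than here, at a mean of 1114 CPM in the sham mice and 4736 CPM in the DOCA-salt mice. The part of free RNA in the Spp1 value was not tested.

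**Figure D2:**
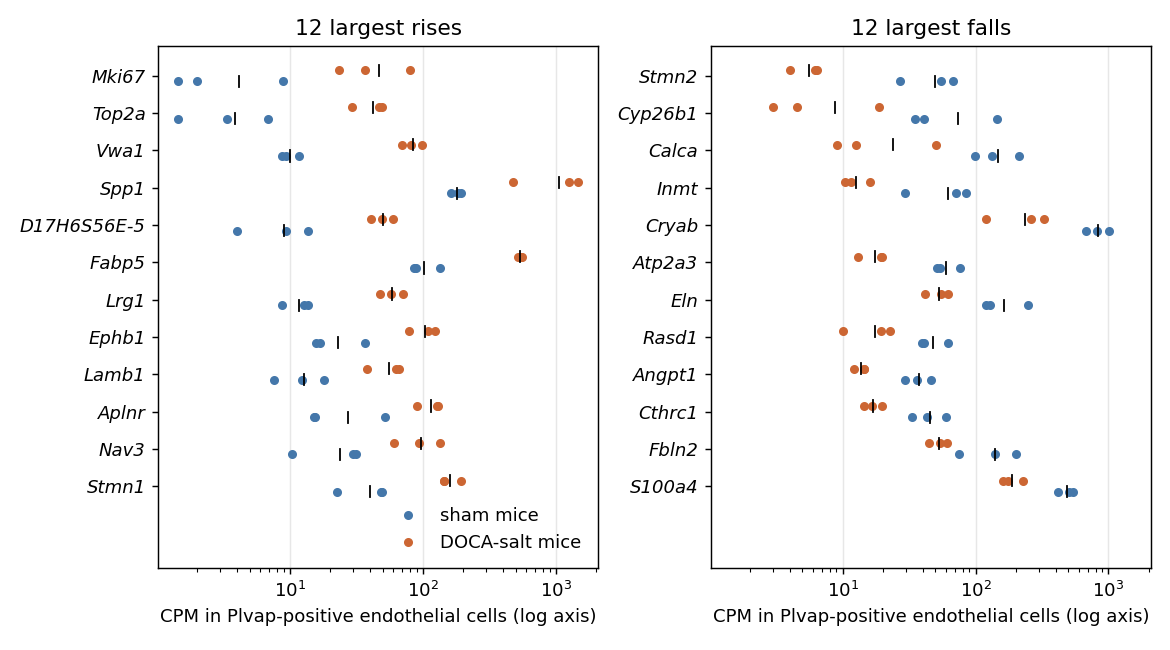
CPM in Plvap-positive endothelial cells on a log axis for the 12 genes with the largest rises and the 12 with the largest falls, with a point per mouse and black marks for group means. By the rule that chose these genes the groups do not overlap in any of them, and for Fabp5 and Vwa1 the mice of each group lie close together.

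Several genes of cell division were low in the sham cells and higher in each DOCA-salt mouse. Of 14 listed genes 13 could be tested, and 8 rose and none fell, with a median log2 change of 2.99. Mki67, a marker of cycling cells, stood at 2.01, 1.45 and 8.94 CPM in the sham mice and 23.6, 79.7 and 36.7 CPM in the DOCA-salt mice (log2 change 3.47, standard error 0.60, adjusted p = 0.0115), and its adjusted p was 0.0597 without sham mouse 1. Top2a, the topoisomerase of dividing cells, stood at 3.35, 1.45 and 6.88 CPM in the sham mice and 29.1, 49.4 and 47.0 CPM in the DOCA-salt mice (log2 change 3.38, standard error 0.41, adjusted p = 0.00268). Stmn1, which destabilises microtubules, stood at 48.3, 22.5 and 49.5 CPM in the sham mice and 144, 194 and 145 CPM in the DOCA-salt mice (log2 change 1.98, standard error 0.26, adjusted p = 0.00373). Cdk1, Birc5, Ccna2, Ccnb2 and Rrm2 made up the rest of the 8, and genes used for DNA copying such as Pcna (log2 change 0.16, adjusted p = 0.748) and Mcm2 (log2 change 0.24, adjusted p = 0.856) did not pass the test. The signal came from a small number of cells. A UMI of Mki67, Top2a, Cdk1, Birc5 or Ccna2 was present in 7, 9 and 4 cells of the sham mice and in 18, 32 and 26 cells of the DOCA-salt mice, which is 1.69% to 3.98% and 9.33% to 14.2% of the Plvap-positive cells. The groups did not overlap. At a common depth of 1000 UMIs a Mki67 UMI was present in 0.157 ± 0.0535% of the sham cells and 2.22 ± 0.655% of the DOCA-salt cells (exact permutation p = 0.1, adjusted 0.171 over 12 markers). Without thinning it was 0.911% and 6.20%, and in the barcodes with fewer than 3 endothelial genes 3.14% and 3.77%. These barcodes had a median of 7140 to 10802 UMIs. At 1000 UMIs the mean Mki67 share was 0.529% and 0.693% in them. It was 0.489% and 2.37% in endothelial cells with neither Plvap nor Ehd3, and 1.01% and 2.85% in those with Ehd3 and no Plvap. The change of Mki67 in the Plvap-positive cells did not pass a test for a difference from either (adjusted p = 0.373 and 0.641, edgeR interaction test). When the Plvap-positive cells with a UMI of those 5 genes were left out, 105 genes were higher and 50 were lower. The rises of Fabp5, Vwa1, Col4a1, Col4a2, Nid1 and Lrg1 all passed the test in that fit, with adjusted p-values of 1.61e-04 to 0.00235, whereas Stmn1 did not (adjusted p = 0.815). Of the 43 named genes 33 passed there and 8 did not. Besides Stmn1 and D17H6S56E-5, the lost calls were Ephb4 (adjusted p = 0.0527), Nr3c2 (0.0554), Nos3 (0.0554), Egr1 (0.0602), Pcdh12 (0.0983) and Smad1 (0.120). Mki67 and Top2a, which chose the cells left out, were not tested there.

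Among the receptors and ligands that steer vessel growth, the apelin receptor gene Aplnr rose from low levels. The gene (GRCm39, chr2:84966569-84970267, plus strand) overlaps Lrrc55os on the same strand, so its reads could be split. It stood at 15.4, 51.5 and 15.1 CPM in the sham mice and 130.3, 89.8 and 128 CPM in the DOCA-salt mice. Sham mouse 2 lay above the other sham mice and below every DOCA-salt mouse (log2 change 2.08, standard error 0.36, adjusted p = 0.0115). The adjusted p was 0.0509 without sham mouse 1, 0.0761 without sham mouse 3 and 0.0750 without DOCA-salt mouse 3. Its ligand Apln overlapped between the groups (log2 change 1.18, adjusted p = 0.253). Nrp2, a co-receptor for semaphorins and growth factors, stood at 134, 176 and 135 CPM in the sham mice and 250.3, 275 and 305 CPM in the DOCA-salt mice (log2 change 0.89, standard error 0.15, adjusted p = 0.0112), with an adjusted p of 0.0633 to 0.0892 without sham mouse 1, sham mouse 3 or DOCA-salt mouse 3. Angpt1, the ligand that activates the Tie2 receptor, fell. It stood at 46.3, 29.8 and 36.5 CPM in the sham mice and 14.6, 14.6 and 12.2 CPM in the DOCA-salt mice (log2 change -1.45, standard error 0.24, adjusted p = 0.0100), and its adjusted p was 0.0691 without DOCA-salt mouse 3. Its mean was higher in the barcodes with fewer than 3 endothelial genes and fell there too, from 88.3 to 59.5 CPM (log2 change -0.66, adjusted p = 0.0114, edgeR). It also fell in endothelial cells with neither Plvap nor Ehd3 (-1.54, 0.0437). The part of free RNA in the Angpt1 value was not tested. The Angpt1 receptor Tek (log2 change 0.11, adjusted p = 0.855), the antagonist Angpt2 (log2 change -0.65, adjusted p = 0.423), Flt4 (log2 change 0.56, adjusted p = 0.0996) and the ligand gene Vegfc (log2 change -0.70, adjusted p = 0.0723) did not pass the test. All 14 genes of this list were tested, and 2 rose and 1 fell. The growth factor receptors Flt1 and Kdr chose the cells and are not in the list.

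Genes of veins and of the vasa recta moved in both directions. Nr2f2, the transcription factor that sets venous identity, stood at 91.9, 108 and 105 CPM in the sham mice and 206, 157 and 158 CPM in the DOCA-salt mice (log2 change 0.75, standard error 0.16, adjusted p = 0.0293). Ephb4, an ephrin receptor of veins, stood at 49.6, 58.8 and 42.7 CPM in the sham mice and 88.1, 76.7 and 87.0 CPM in the DOCA-salt mice (log2 change 0.72, standard error 0.16, adjusted p = 0.0367). The groups did not overlap in either gene, but the calls were weak. Without sham mouse 1, sham mouse 3, DOCA-salt mouse 1 or DOCA-salt mouse 3 the adjusted p of Nr2f2 was 0.0870 to 0.152, and Ephb4 passed the test only when sham mouse 2 was the one left out. Cryab, a small heat shock protein that renal cells make under osmotic load, fell from high levels. It stood at 683, 818 and 1002 CPM in the sham mice and 121, 259 and 326 CPM in the DOCA-salt mice (log2 change -1.84, standard error 0.30, adjusted p = 0.00913), and it did not pass the test without the cells holding a Sox17 or Gja5 UMI (log2 change -1.09, adjusted p = 0.194). Of 12 listed genes 11 were tested, and Nr2f2 and Ephb4 rose and Cryab fell. Vwf, another gene of the list, moved against Nr2f2 and Ephb4, from 24.3 ± 8.29 CPM to 11.6 ± 2.94 CPM. Its groups did not overlap, but it did not pass the test (log2 change -1.07, adjusted p = 0.130). Ackr1 stood at 0 CPM in every mouse and was not tested. The vasa recta genes Slc14a1 (log2 change -0.80, adjusted p = 0.0588) and Scin (log2 change -0.79, adjusted p = 0.0544) were lower in every DOCA-salt mouse than in any sham mouse but missed the threshold, and Aqp1 overlapped (log2 change -0.57, adjusted p = 0.273).

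The largest falls were mostly in genes of low level. Stmn2, a stathmin best known from neurons, stood at 26.8, 55.1 and 67.4 CPM in the sham mice and 6.24, 4.03 and 6.44 CPM in the DOCA-salt mice (log2 change -3.19, standard error 0.40, adjusted p = 0.00292). Calca, which encodes calcitonin gene-related peptide, stood at 134, 211 and 99.1 CPM in the sham mice and 50.6, 12.6 and 9.02 CPM in the DOCA-salt mice (log2 change -2.67, standard error 0.47, adjusted p = 0.0124), and without DOCA-salt mouse 3 its adjusted p was 0.0792. Cyp26b1, an enzyme that breaks down retinoic acid, stood at 34.9, 144 and 41.3 CPM in the sham mice and 18.7, 3.03 and 4.51 CPM in the DOCA-salt mice (log2 change -3.14, standard error 0.65, adjusted p = 0.0291). Sham mouse 2 was far above the other sham mice, and the adjusted p was 0.0505 to 0.171 without sham mouse 3, DOCA-salt mouse 2 or DOCA-salt mouse 3. S100a4, a calcium-binding protein of motile cells, was more abundant and fell evenly. It stood at 545, 418 and 508 CPM in the sham mice and 228, 175 and 161 CPM in the DOCA-salt mice (log2 change -1.40, standard error 0.17, adjusted p = 0.00292). Eln, which encodes elastin, stood at 120.0, 247 and 128 CPM in the sham mice and 62.4, 41.9 and 54.8 CPM in the DOCA-salt mice (log2 change -1.66, standard error 0.27, adjusted p = 0.00851, and 0.0648 without DOCA-salt mouse 3). Fbln2, a fibulin of elastic vessel walls, moved from 139.8 ± 64.0 CPM to 53.2 ± 7.88 CPM (log2 change -1.41, adjusted p = 0.0310), with an adjusted p of 0.101 to 0.119 in 4 of the fits that left out a mouse, namely sham mouse 3 or any DOCA-salt mouse. Atp2a3, a calcium pump of the endoplasmic reticulum, stood at 51.0, 53.7 and 76.4 CPM in the sham mice and 19.4, 13.1 and 19.97 CPM in the DOCA-salt mice (log2 change -1.82, standard error 0.25, adjusted p = 0.00436). Bmx, a kinase of arterial endothelium, stood at 61.0, 39.2 and 51.6 CPM in the sham mice and 22.2, 18.7 and 20.6 CPM in the DOCA-salt mice (log2 change -1.33, standard error 0.22, adjusted p = 0.00913, and 0.0618 without DOCA-salt mouse 3).

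Further falls were those of Inmt, Rasd1 and Cthrc1. Inmt, a methyltransferase, moved from 62.3 ± 29.0 CPM to 12.7 ± 3.03 CPM (log2 change -2.29, adjusted p = 0.00924), with an adjusted p of 0.0693 without DOCA-salt mouse 3. It also fell in the barcodes with fewer than 3 endothelial genes, from 496 to 112 CPM. Rasd1, a Ras-like gene induced by dexamethasone, moved from 47.8 ± 12.7 CPM to 17.4 ± 6.60 CPM (log2 change -1.49, adjusted p = 0.0217), with an adjusted p of 0.0552 to 0.0887 without sham mouse 3, DOCA-salt mouse 2 or DOCA-salt mouse 3. Cthrc1, a secreted protein with a collagen triple helix, moved from 45.7 ± 13.6 CPM to 17.1 ± 2.73 CPM (log2 change -1.43, adjusted p = 0.0133), with an adjusted p of 0.0505 to 0.0614 without sham mouse 1, sham mouse 3, DOCA-salt mouse 1 or DOCA-salt mouse 3. Of 18 listed Notch pathway and arterial genes 16 were tested, none rose and only Bmx fell. Sox17, the transcription factor at the head of that list, stood at 666, 619 and 532 CPM in the sham mice and 453, 453 and 481 CPM in the DOCA-salt mice. The groups did not overlap, but the change missed the threshold (log2 change -0.40, adjusted p = 0.187). With Ehd3 UMIs allowed, a setting chosen after seeing the data, Sox17 passed the test (log2 change -0.73, adjusted p = 0.00286). The Notch ligand gene Jag2 did not pass the test among the Plvap-positive cells (log2 change -0.74, adjusted p = 0.0563).

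Among the corticosteroid receptors and responsive genes 2 fell. Nr3c2, which encodes the mineralocorticoid receptor that DOCA acts on, stood at 358, 349 and 266 CPM in the sham mice and 199, 167 and 180.4 CPM in the DOCA-salt mice (log2 change -0.84, standard error 0.15, adjusted p = 0.0122). Without sham mouse 1, DOCA-salt mouse 2 or DOCA-salt mouse 3 its adjusted p was 0.0502, 0.0556 and 0.0870. Nr3c2 was also lower on average outside these cells. Its means were 136 and 97.3 CPM in the barcodes with fewer than 3 endothelial genes (sham and DOCA-salt, adjusted p = 0.0258, edgeR). They were 210 and 126 CPM in endothelial cells with Ehd3 and no Plvap, and 352 and 222 CPM in those with neither. The change in the Plvap-positive cells differed little from these 2 (log2 difference -0.04 and -0.12). Cdkn1a, an inhibitor of the cell cycle, stood at 439, 387 and 497 CPM in the sham mice and 234, 224 and 234 CPM in the DOCA-salt mice (log2 change -0.95, standard error 0.15, adjusted p = 0.00755, and 0.0615 without DOCA-salt mouse 3). The glucocorticoid receptor gene Nr3c1 stood at 359, 305 and 325 CPM in the sham mice and 241, 299 and 320.2 CPM in the DOCA-salt mice (log2 change -0.21, adjusted p = 0.611). The hormone target Sgk1 overlapped between the groups (log2 change 0.54, adjusted p = 0.327), as did Tsc22d3 (log2 change 0.32, adjusted p = 0.741). Of 16 listed genes 12 were tested and none rose.

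Among vasoactive genes only Nos3, the endothelial nitric oxide synthase, passed the test. It stood at 185, 135 and 186 CPM in the sham mice and 99.1, 113 and 91.5 CPM in the DOCA-salt mice. It fell (log2 change -0.75, standard error 0.17, adjusted p = 0.0474), and it passed the test in 1 of the 6 fits that left out a mouse, the one without sham mouse 2. The flow-induced factor Klf2 stood at 2706, 3693 and 2795 CPM in the sham mice and 3062, 1770 and 2279 CPM in the DOCA-salt mice and overlapped (log2 change -0.38, adjusted p = 0.476). Ptgs1, which encodes cyclooxygenase 1, was higher in every DOCA-salt mouse (log2 change 0.87, adjusted p = 0.0501) and Edn1, which encodes endothelin 1, lower in every one (log2 change -0.49, adjusted p = 0.183), and neither passed the test. Of 24 listed genes 18 were tested. TGF-beta signalling gave 1 rise and 1 fall among 20 genes tested. Tgfb2, a TGF-beta ligand, stood at 127, 211 and 172 CPM in the sham mice and 69.3, 60.5 and 76.7 CPM in the DOCA-salt mice (log2 change -1.32, standard error 0.19, adjusted p = 0.00524), with an adjusted p of 0.677 without the cells holding a Sox17 or Gja5 UMI. Smad1, a transducer of BMP signals, stood at 101, 99.4 and 76.4 CPM in the sham mice and 131, 145 and 177 CPM in the DOCA-salt mice (log2 change 0.70, adjusted p = 0.0444), and passed the test only when sham mouse 2 was left out. Tgfb1 did not pass it (log2 change 0.35, adjusted p = 0.343).

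Because the study followed extracellular ATP, genes of purine handling were listed too, and they gave 1 call among 9 genes tested. Entpd1, the CD39 ectoenzyme that breaks down extracellular ATP, stood at 75.1, 84.9 and 88.1 CPM in the sham mice and 138, 123 and 137 CPM in the DOCA-salt mice (log2 change 0.66, standard error 0.14, adjusted p = 0.0333), and passed the test only when sham mouse 2 was left out. The adenosine kinase gene Adk did not pass it (log2 change -0.68, adjusted p = 0.0599). The adenosine receptor gene Adora2a moved from 4.68 ± 2.32 CPM to 12.6 ± 4.71 CPM (log2 change 1.41, adjusted p = 0.129). Egr1, an early response factor, was the only call among 20 tested immediate early and stress genes. It stood at 1491, 2162 and 2180 CPM in the sham mice and 1117, 1037 and 1223 CPM in the DOCA-salt mice (log2 change -0.81, standard error 0.18, adjusted p = 0.0440), with an adjusted p of 0.128 to 0.167 without sham mouse 3 or any DOCA-salt mouse. Fos (log2 change -0.48, adjusted p = 0.202) and Ier3 (log2 change -0.61, adjusted p = 0.0919) were lower in every DOCA-salt mouse without passing the test, and the median log2 change of the list was -0.41. Pcdh12, an endothelial protocadherin, was the only call of 13 tested junction genes, with a move from 15.1 ± 3.29 CPM to 34.9 ± 7.11 CPM (log2 change 1.21, adjusted p = 0.0360), and it passed the test only when sham mouse 2 was left out. Cldn5 was not called (log2 change -0.47, adjusted p = 0.259).

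Some lists gave no call. None of 11 tested genes of fenestrae and caveolae passed the test, and Cav1, the main caveolar coat protein, stood at 205, 239 and 211 CPM in the sham mice and 234, 204 and 220.3 CPM in the DOCA-salt mice (log2 change -0.01, adjusted p = 0.989). None of 15 tested adhesion and chemokine genes passed it. Icam1 stood at 196, 217 and 213 CPM in the sham mice and 265, 206 and 229 CPM in the DOCA-salt mice. The leukocyte-binding selectin genes Sele (log2 change 2.02, adjusted p = 0.0561) and Selp (log2 change 2.32, adjusted p = 0.0552) were higher on average and the chemokine gene Cxcl12 was lower (log2 change -1.43, adjusted p = 0.0655), and none passed the test. The groups overlapped for Selp and not for Sele or Cxcl12. None of 29 tested antigen presentation and interferon genes passed it, and B2m, the light chain of MHC class I, stood at 1168, 1170 and 1044 CPM in the sham mice and 1439, 1204 and 1321 CPM in the DOCA-salt mice (log2 change 0.22, adjusted p = 0.566). None of 15 tested glycolysis and hypoxia genes passed it, with Slc2a1 at 50.3, 31.2 and 46.1 CPM in the sham mice and 48.5, 60.5 and 58.6 CPM in the DOCA-salt mice (log2 change 0.38, adjusted p = 0.465). Of 10 tested genes of mesenchymal transition none rose and S100a4 fell. Snai1, the transcription factor at the head of the list, moved from 5.37 ± 2.61 CPM to 15.5 ± 3.37 CPM (log2 change 1.51, adjusted p = 0.0662). Zeb1 (log2 change 0.54, adjusted p = 0.0674) and Zeb2 (log2 change -0.51, adjusted p = 0.0962) did not pass it either. These results do not show that such genes were equal between the groups.

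**Figure D3:**
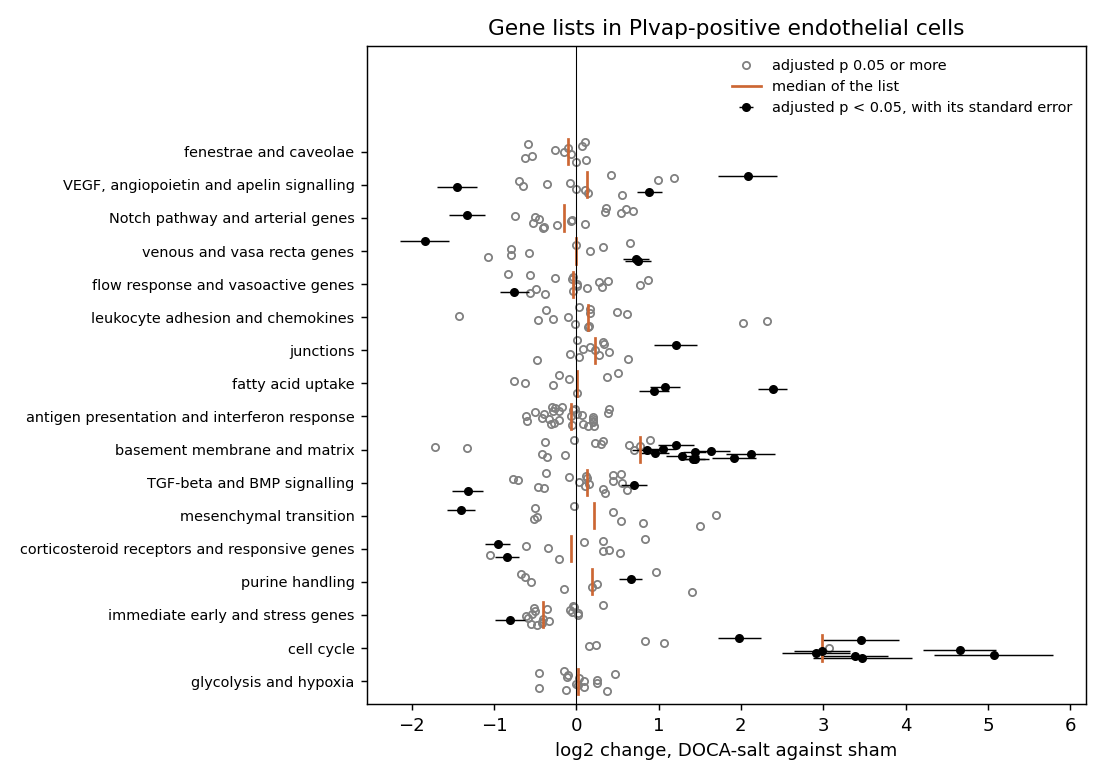
Each point is a gene tested in Plvap-positive endothelial cells and the x axis is its log2 change in DOCA-salt against sham mice; filled points passed the test and carry their standard error, and orange lines are list medians. The matrix list (median 0.78) and the cell cycle list (median 2.99) lie to the right, and most other medians lie near 0. The matrix list does not hold Vwa1, which rose, or Eln, Fbln2 and Cthrc1, which fell.

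To see whether the mix of vessel types differed, the share of Plvap-positive cells with a UMI of each of 12 markers was compared after every cell was reduced to 1000 UMIs. The exact permutation test gave p = 0.1, the smallest it can give, for 7 of them and 0.171 after adjustment over the 12. Igfbp3 was present in 26.0%, 37.2% and 28.7% of the sham cells and 39.6%, 37.8% and 46.1% of the DOCA-salt cells. In endothelial cells with neither Plvap nor Ehd3 its mean thinned share was 17.2% and 30.3%. Igfbp3 did not set apart the cells without vasa recta UMIs. In the sham mice it stood at 565 CPM in the Plvap-positive cells with an Aqp1, Slc14a1 or Scin UMI and 340 CPM in those without. In the DOCA-salt mice these means were 1025 and 1029 CPM. Its summed level moved from 480 ± 80.2 CPM to 1026 ± 274 CPM (log2 change 1.08, adjusted p = 0.0158, edgeR). That call was lost without sham mouse 1, sham mouse 3, DOCA-salt mouse 1 or DOCA-salt mouse 3 (adjusted p = 0.0586 to 0.107) and among the cells with no Sox17 or Gja5 UMI (log2 change 0.09, 0.979). Aplnr was present in 2.50%, 7.94% and 2.70% against 12.6%, 10.7% and 12.3%, and Nr2f2 in 9.76%, 10.6% and 10.4% against 18.4%, 14.6% and 13.8%. Sox17 was present in 34.5%, 30.5% and 28.0% against 26.2%, 23.3% and 26.1%, and Slc14a1 in 13.8%, 8.15% and 11.2% against 6.61%, 5.70% and 6.94%. Npr3, a clearance receptor for natriuretic peptides, was present in 8.57 ± 1.74% against 5.19 ± 0.386%. The remaining 5 markers, Vwf, Gja5, Prox1, Apln and Esm1, gave p-values of 0.2 to 0.7. Without thinning the mean shares were 58.7% and 68.4% for Igfbp3, 9.93% and 32.1% for Aplnr, 35.1% and 52.6% for Nr2f2, 58.8% and 55.7% for Sox17, 18.8% and 12.3% for Slc14a1, and 17.9% and 16.3% for Npr3. The unthinned shares of the groups overlapped for Sox17, Slc14a1 and Npr3. In the barcodes with fewer than 3 endothelial genes the thinned shares of Igfbp3, Aplnr, Sox17 and Slc14a1 were 0.00904% to 0.497%, while Nr2f2 was found in 10.99% and 11.9% of them.

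**Figure D4:**
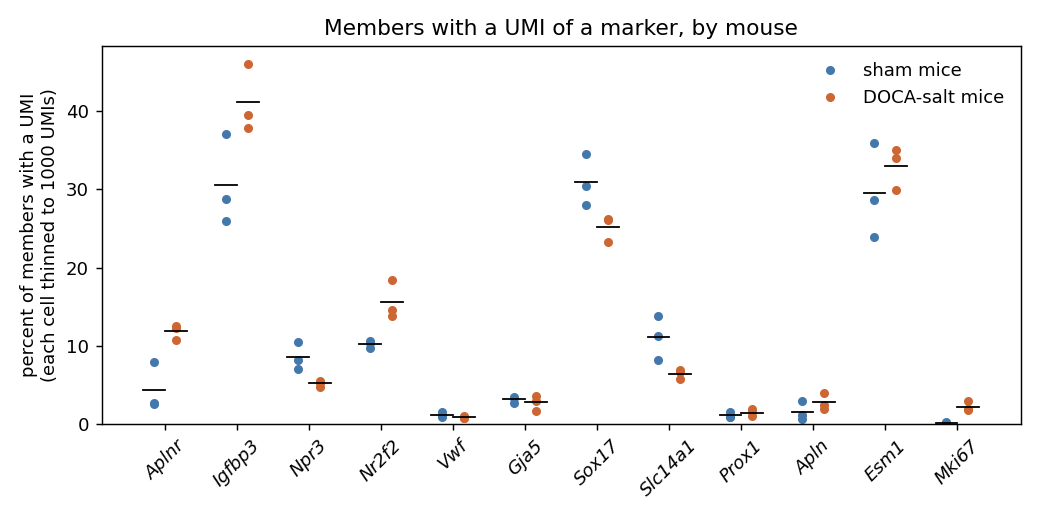
The percent of Plvap-positive cells with a UMI of each of 12 markers after thinning to 1000 UMIs per cell, with a point per mouse and black lines for group means. The groups do not overlap for Aplnr, Igfbp3, Npr3, Nr2f2, Sox17, Slc14a1 and Mki67.

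The comparison was repeated without the cells that held an Aqp1, Slc14a1 or Scin UMI. Their unthinned share overlapped between the groups, with sham mouse 2 below every DOCA-salt mouse. This left 110, 160 and 131 cells in the sham mice and 133, 148 and 150 in the DOCA-salt mice, and gave 146 higher and 142 lower genes, of which 93 and 48 were also called among all cells. The level of Plvap itself was 1261 CPM in the sham and 1500 CPM in the DOCA-salt cells without these UMIs, against 365 and 482 CPM in the cells with them. Fabp5 moved from 187 ± 34.4 CPM to 801 ± 60.1 CPM in the cells without these UMIs and from 49.2 ± 3.02 CPM to 284 ± 34.3 CPM in the cells with them. Col4a1 moved from 387 ± 66.6 to 1202 ± 229 CPM in the former and from 280 ± 60.0 to 568 ± 72.8 CPM in the latter. Calca moved from 260 ± 63.5 to 19.4 ± 8.41 CPM in the cells without vasa recta UMIs, and from 80.2 ± 38.3 to 29.5 ± 38.9 CPM in those with them. S100a4 moved from 455 ± 113 to 72.8 ± 37.0 CPM and from 497 ± 112 to 302 ± 46.6 CPM in the same order. The differences between these subsets were not tested. The cells with such UMIs were deeper, with a median of 7378 to 10501 UMIs against 3073 to 5456.

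A smaller subset left out every cell with a Sox17 or Gja5 UMI and held 73 to 102 cells per mouse. There 24 genes were higher and 13 lower among 6457 tested. Of the 43 named genes called among all cells, 11 passed the test in this subset, 21 were tested and did not pass, and the rest were too low to be tested. Of the matrix genes Col4a1 (log2 change 1.10, adjusted p = 0.0440) and Col4a2 (1.30, 0.0294) passed the test, and so did Fabp5 (1.71, 0.0126), Vwa1 (2.15, 0.0126), Top2a (5.38, 0.00979) and Mki67 (5.44, 0.0196). Cyp26b1 (-5.21, 0.0126) and Inmt (-2.13, 0.0412) were lower there. The 21 that no longer passed it kept their sign. They were Lrg1, Nr3c2, Ephb1, Nid1, Cdkn1a, Cryab, Fabp4, Lamb1, Col15a1, Nr2f2, Nav3, Aplnr, Smad1, Tgfb2, Egr1, Pcdh12, Entpd1, Gpihbp1, Ephb4, Nrp2 and Nos3, with adjusted p-values of 0.0559 for Lrg1 to 0.976 for Nos3. Among these 21 genes the log2 change shrank most for Nos3 (-0.75 to -0.09), Gpihbp1 (1.07 to 0.27) and Nrp2 (0.89 to 0.22). It stayed close to that among all cells for Nr3c2 (-0.84 and -0.83), Nr2f2 (0.75 and 0.72), Lrg1 (2.30 and 2.09) and Fabp4 (0.94 and 0.85). The others lay between. Stmn2, Calca, Eln, S100a4, Bmx and Angpt1 were too low in this subset to be tested.

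**Figure D5:**
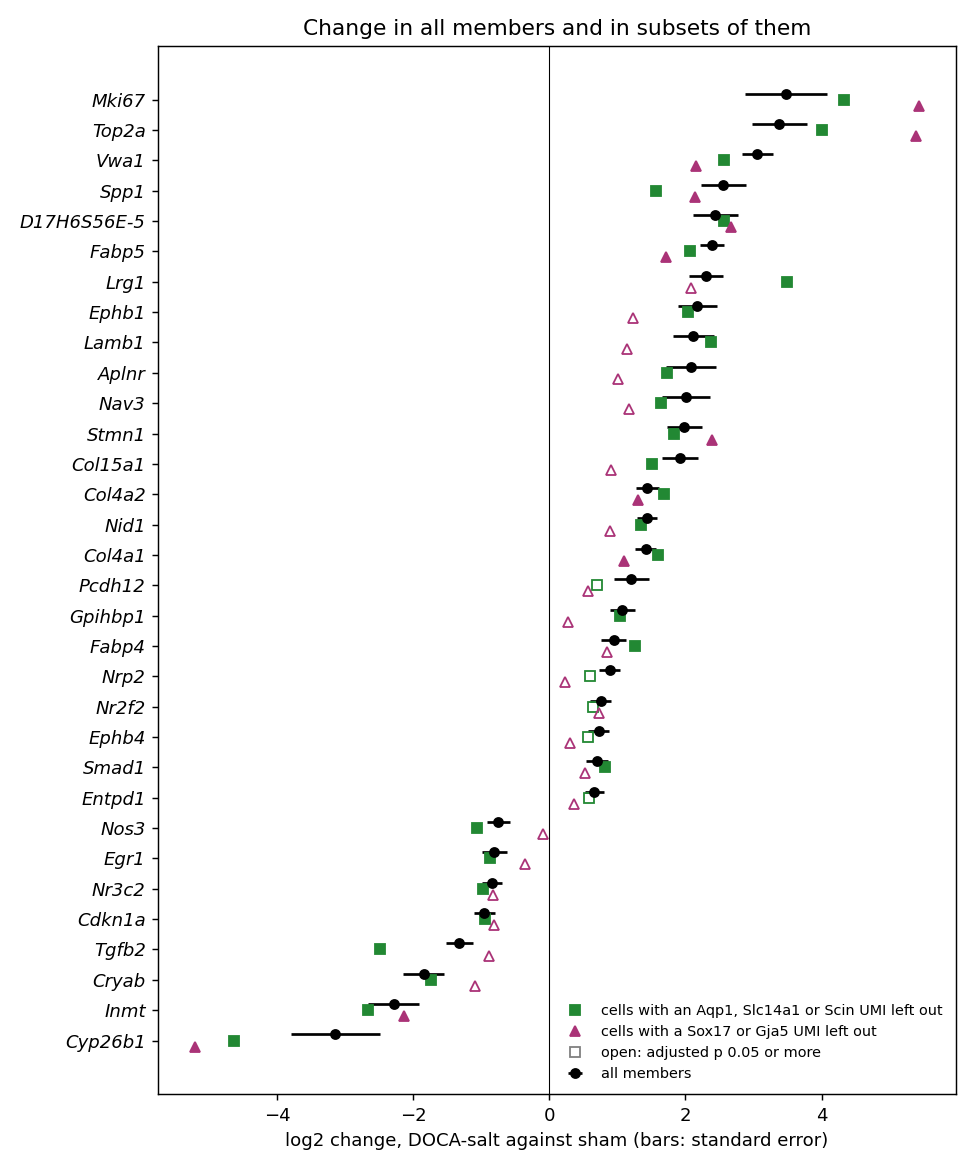
The log2 change in DOCA-salt against sham mice for named genes that passed the test among all cells (black, with standard error) and could be tested in both subsets: without cells holding an Aqp1, Slc14a1 or Scin UMI (green squares) and without cells holding a Sox17 or Gja5 UMI (purple triangles), open where the adjusted p was 0.05 or more. Every gene keeps its direction in both subsets.

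The change in Plvap-positive cells was then set against that in 2 other groups of endothelial cells of the same mice, with an interaction term and the mouse as a block. The Ehd3-positive cells without Plvap, which carry Gata5 and so stand nearest to glomerular endothelium, numbered 34, 38 and 48 in the sham mice and 24, 28 and 18 in the DOCA-salt mice. The change differed for 13 of 10024 genes, or 0.130%, with 10 more positive and 3 more negative in the Plvap-positive cells. In the Ehd3-positive cells alone, edgeR called 0 of 6178 genes, and 343 had an unadjusted p under 0.05. Piezo2, a stretch-activated channel, stood at 61.7, 87.8 and 55.0 CPM in the sham mice and 199, 306 and 284 CPM in the DOCA-salt mice among the Plvap-positive cells. In the Ehd3-positive cells it stood at 156, 168 and 149 CPM in the sham mice and 123, 119.9 and 148 CPM in the DOCA-salt mice. The difference of the changes was large (log2 difference 2.27, standard error 0.25, adjusted p = 0.00142) and passed the test in 5 of 6 fits that left out a mouse. Col15a1 stood in the Ehd3-positive cells at 99.0, 122 and 129 CPM in the sham mice and 112, 87.2 and 69.2 CPM in the DOCA-salt mice, without the rise described above (log2 difference 2.37, standard error 0.37, adjusted p = 0.0276). It passed in 3 of 6 such fits. Srgap1 (log2 difference 1.86, standard error 0.31, adjusted p = 0.0441) and Arhgap18 (log2 difference 1.72, standard error 0.30, adjusted p = 0.0441) passed in 0 of 6. Without sham mouse 1 there were 0 such genes in either direction (545 at an unadjusted p under 0.05), and leaving out any of the other mice gave 2 to 6 more positive and 0 to 13 more negative genes. DESeq2 called 4 and 1. The rises of Fabp5 and Nid1 described above were also among the 10 (adjusted p = 0.0441 for each). On the negative side were Scin (log2 difference -1.74, standard error 0.31, adjusted p = 0.0441) and the tubule transport genes Slc14a2 and Aqp2. Among the fits that left out a mouse, Scin passed in 1 of 6, Aqp2 in 1 of 6 and Slc14a2 in 4 of the 5 that tested it. With each cell thinned to 1000 UMIs there were 0 calls in either direction (176 at an unadjusted p under 0.05, edgeR), and the adjusted p of Piezo2 was 0.108. Single Ehd3-positive cells held 872 of the 903 Slc14a2 UMIs and 734 of the 791 Aqp2 UMIs of the DOCA-salt mice.

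The endothelial cells with neither Plvap nor Ehd3 numbered 75, 85 and 88 in the sham mice and 80, 69 and 78 in the DOCA-salt mice. Their Flt1 level was 782, 955 and 1132 CPM in the sham mice and 694, 379 and 573 CPM in the DOCA-salt mice. Ptprb and Egfl7 were likewise lower in every DOCA-salt mouse than in any sham mouse. Pecam1, Cdh5 and Emcn were lower on average and Kdr higher, with overlapping groups. These genes chose the cells, so this is a description, and its part in the differences below was not tested. The change differed for 258 of 10519 genes, or 2.45%, with 146 more positive and 112 more negative in the Plvap-positive cells. With scaling by library size alone the split was 92 and 117. Sema6d, a semaphorin, was close to level in the Plvap-positive cells, at 87.9, 155 and 124 CPM in the sham mice and 101, 103 and 139 CPM in the DOCA-salt mice. In the other cells it stood at 202, 215 and 344 CPM in the sham mice and 82.8, 49.5 and 71.2 CPM in the DOCA-salt mice (log2 difference 1.84, standard error 0.27, adjusted p = 0.00564). Slc29a1, a nucleoside transporter, stood at 29.5, 82.7 and 42.0 CPM in the sham mice and 119, 80.7 and 105 CPM in the DOCA-salt mice in the Plvap-positive cells and at 45.1, 57.6 and 52.4 CPM in the sham mice and 34.1, 32.5 and 25.8 CPM in the DOCA-salt mice in the other cells (log2 difference 1.83, standard error 0.33, adjusted p = 0.0122). Man1c1, a mannosidase of the Golgi, was more positive as well (log2 difference 1.78, standard error 0.33, adjusted p = 0.0145). The most negative differences were those of the collecting duct and epithelial genes Aqp2 (log2 difference -4.40, standard error 0.77, adjusted p = 0.0107), Fxyd4 (log2 difference -3.01, standard error 0.69, adjusted p = 0.0357) and Krt7 (log2 difference -2.95, standard error 0.61, adjusted p = 0.0215) and of Cd74, the invariant chain of MHC class II (log2 difference -2.83, standard error 0.64, adjusted p = 0.0352). When a mouse was left out, Sema6d passed in 6 of 6 fits, Slc29a1 and Man1c1 in 5 each, Krt7 in 4, Aqp2 and Cd74 in 3 each and Fxyd4 in 2. With each cell thinned to 1000 UMIs 3 genes were more positive and 7 more negative, and the adjusted p of Sema6d was 0.163. In the cells without Plvap, Krt7 (log2 change 3.18, adjusted p = 0.0272, edgeR) and Cd74 (2.22, 0.0168) rose, while Aqp2 (2.71, 0.235) and Fxyd4 (2.31, 0.129) did not pass the test. In the DOCA-salt mice 1 such cell held 281 of the 672 Aqp2 UMIs and 1 held 133 of the 356 Cd74 UMIs. Without sham mouse 3 the calls dropped to 8 more positive and 17 more negative genes, without sham mouse 1 they were 52 and 55, without DOCA-salt mouse 2 they were 57 and 56, and without DOCA-salt mouse 3 they were 72 and 88. The change of Cryab, which fell in the Plvap-positive cells, differed from that in these cells (adjusted p = 0.0178), where its mean was 699 CPM in the sham mice and 1149 CPM in the DOCA-salt mice (adjusted p = 0.423). The change of Entpd1, which rose in the Plvap-positive cells, differed as well (adjusted p = 0.0392), with means of 67.2 and 51.4 CPM in these cells (adjusted p = 0.483). The difference did not pass the test for Col4a1 (adjusted p = 0.145) or Fabp5 (0.401). In these cells alone edgeR called 212 genes higher and 102 lower of 8237 tested. Col4a1 (log2 change 0.96, adjusted p = 0.0313) and Lamb1 (2.39, 0.00775) rose there. Calca (-2.40, 0.0161), Inmt (-2.35, 0.0133), Atp2a3 (-1.34, 0.0437), Tgfb2 (-0.94, 0.0382) and Cdkn1a (-0.89, 0.0348) fell there. These changes were thus not particular to the Plvap-positive cells. Fabp5 (1.48, 0.180) did not pass the test there.

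RNA of other cell types was present at levels that varied widely between cell types, and differed between the groups for some of them. The proximal tubule markers had the highest sum in every mouse, above the level of Plvap itself. The 6 fibroblast markers summed to 0 to 2.01 CPM in the sham mice, with 4 of them at 0 in all 3, and to 18.7 to 21.5 CPM in the DOCA-salt mice, with 24 of the 31 UMIs of DOCA-salt mouse 1 in 1 cell. In the barcodes with fewer than 3 endothelial genes their mean sums were 20.7 and 325 CPM. The 7 macrophage markers summed to 16.5 to 31.5 CPM and 47.1 to 73.6 CPM, and Fcer1g, the only one tested, was called higher (log2 change 1.58, adjusted p = 0.0299, edgeR), but passed the test only without sham mouse 2 when a mouse was left out (0.0837 to 0.124 without another). The 10 proximal tubule markers summed to 2086 to 5610 CPM and 2227 to 3060 CPM, with Kap at 1655, 941 and 2502 CPM in the sham mice and 840.3, 484 and 939 CPM in the DOCA-salt mice (log2 change -1.20, adjusted p = 0.101). The 6 pericyte and smooth muscle markers ranged from 18.1 to 638 CPM and from 22.2 to 122 CPM, the former maximum resting on the single cell of sham mouse 3, and the first of them, Rgs5, was not called (log2 change 1.24, adjusted p = 0.524). The 4 glomerular endothelial markers summed to 186 to 253 CPM and 134 to 157 CPM. Of these Ptprr passed the test, at 142, 184 and 173 CPM in the sham mice and 90.1, 101 and 96.0 CPM in the DOCA-salt mice (log2 change -0.81, adjusted p = 0.0163, and 0.0888 to 0.104 without sham mouse 3, DOCA-salt mouse 1 or DOCA-salt mouse 3). Ptprr made up most of the sum in each mouse. Its means were 121 and 113 CPM in the Ehd3-positive cells and 248 and 161 CPM in endothelial cells with neither gene (sham and DOCA-salt). In the sham mice it was thus lower in the Ehd3-positive cells than in the Plvap-positive cells. The sum and this call are therefore not a measure of glomerular RNA. The 6 lymphatic markers summed to 55.0 to 174 CPM and 135 to 169 CPM, with Prox1 not called (log2 change 0.69, adjusted p = 0.355). The 4 podocyte markers stayed at or below 28.2 CPM and the 5 lymphocyte markers at or below 5.50 CPM. The 4 hemoglobin genes stayed at or below 6.24 CPM in every mouse except sham mouse 2, with 1366 CPM. The part of this RNA in the gene changes was not tested.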

How the data were processed

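Single cells from dissociated kidneys of 3 sham and 3 DOCA-salt mice were profiled by droplet 3′ RNA sequencing, with 6 libraries in all. The authors deposited raw UMI counts per gene and barcode for each library, aligned to GRCm39. Their processing notes name Cell Ranger 9.0.0, R 4.0.3 and Seurat 4.0.0, while the headers of the files name Cell Ranger 8.0.1. The deposited barcodes had not been filtered by the study's limits on cells or doublets.

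Cells were chosen by the limits on genes given above, without clustering. The UMIs of each mouse were summed and tested with edgeR 4.0.16 (R 4.3.3, TMM scaling, filterByExpr, quasi-likelihood test, Benjamini-Hochberg adjustment, threshold 0.05). DESeq2 1.42.0 served as an alternative. Doublets were not removed in the main comparison, and an alternative removed the highest Scrublet scores (scanpy 1.11.5, 0.8% of cells per 1000 cells). Exact permutation tests used scipy 1.17.1. Each mouse is 1 replicate. Shares at 1000 UMIs are the expected shares after thinning, and levels are CPM of the summed UMIs, a measure of tags near the 3′ end that is not scaled by gene length.

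Named genes were the 12 largest rises and the 12 largest falls that passed the test, had non-overlapping groups and reached 20 CPM on average, up to 4 genes per list that passed it with the same CPM, the first gene of each list whatever its values, and the 4 largest differences each way against other endothelial cells, of which 1 gene is not reported here. Further genes named in the text were chosen after their values were seen. The cells, gene lists and tests were chosen with earlier results of these data known. Gene positions came from a GENCODE annotation of the same build, in which 33185 of 33696 gene identifiers were found. The model code was tested on simulated data.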

Additional observations from a re-analysis of the deposited data

Results flagged for a closer look

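The change with DOCA-salt differed between Plvap-positive cells and Ehd3-positive cells without Plvap by the interaction test for the following named genes, given as log2 differences. It was more positive for Col15a1 (2.37), Piezo2 (2.27), Srgap1 (1.86) and Arhgap18 (1.72), and more negative for Slc14a2 (-8.48), Aqp2 (-6.70) and Scin (-1.74). In the Ehd3-positive cells of the DOCA-salt mice 1 cell held 96.6% of the Slc14a2 UMIs and 1 cell held 92.8% of the Aqp2 UMIs.

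Against endothelial cells without Plvap and Ehd3 the change was more positive for Sema6d (1.84), Slc29a1 (1.83) and Man1c1 (1.78). It was more negative for Aqp2 (-4.40), Fxyd4 (-3.01), Krt7 (-2.95) and Cd74 (-2.83). In these cells 41.8% of the Aqp2 UMIs and 37.4% of the Cd74 UMIs of the DOCA-salt mice came from 1 cell each.

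Cells with UMIs of both Plvap and Ehd3, which the comparisons of Plvap-positive cells leave out, made up a mean of 3.49% of the barcodes in the DOCA-salt mice and 1.69% in the sham mice. These cells were deeper in the DOCA-salt mice (median 7810 to 9284 UMIs against 3591 to 4383), and the part of depth in their number was not tested.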

How the results depend on the processing

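Among the 43 named genes that passed the test, none changed direction under an alternative. Of the 171 genes called higher and 69 called lower, the counts moved by more than 1.5 times in these fits. Higher genes numbered 451 with no filter on low counts, 326 with Col1a1 UMIs allowed, 18 with each cell thinned to 1000 UMIs and 24 without cells holding a Sox17 or Gja5 UMI. Lower genes numbered 298, 105, 21 and 13 in the same order, and 104 with proximal tubule genes at most 0.1% of UMIs. Settings chosen after seeing the data gave 625 higher and 488 lower with Ehd3 UMIs allowed, 105 higher without cells holding a cell cycle UMI, and 142 lower without cells holding an Aqp1, Slc14a1 or Scin UMI. Some first genes of lists that missed the threshold above passed it with Ehd3 UMIs allowed. They were Flt4 (log2 change 0.86, adjusted p = 0.00143), Sox17 (-0.73, 0.00286), Snai1 (1.66, 0.00442), Cldn5 (-0.98, 0.00784), Icam1 (0.53, 0.0204) and Prox1 (0.79, 0.0390). The other first genes that had missed it, such as Cav1, Klf2 and Cd36, did not pass there either. Leaving out 1 mouse gave 61 to 323 higher and 13 to 226 lower. With the replicate number as a block there were 77 higher and 24 lower genes, and 19 of the 43 named genes no longer passed. The deviations of same-numbered mice had correlations of -0.20, -0.40 and -0.10. With so few mice per group, the deviations within a group depend on each other. These correlations therefore cannot decide whether same-numbered mice shared a batch, and this was not tested.

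For the difference from Ehd3-positive cells (10 higher, 3 lower), DESeq2 gave 4 and 1, no filter 84 and 84, mitochondrial UMIs at most 20% 3 and 1, thinning 0 and 0 (176 genes at an unadjusted p under 0.05), removal of the highest Scrublet scores 1 lower, and leaving out 1 mouse 0 to 6 and 0 to 13. For the difference from cells without Plvap and Ehd3 (146 higher, 112 lower), DESeq2 gave 93 and 31, library size only 92 higher, no filter 306 and 338, removal of the highest Scrublet scores 256 and 256, thinning 3 and 7, and leaving out 1 mouse 8 to 189 and 17 to 139. No replicate block was added to these fits, which hold the mouse as a block.

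The difference in the share of Plvap-positive endothelial cells, -0.257 percentage points, was 1.54 with Ehd3 UMIs allowed and -0.483 to -0.0397 without 1 mouse. The difference in the thinned Gja5 share was 0.120 without DOCA-salt mouse 2, with a range of -0.824 to 0.120. The Slc14a1 share is 0 by construction where cells with its UMI are left out. Named genes that did not pass the test changed sign as follows (log2 change). Cav1 was 0.00589 with library size only, -0.0819 to 0.0399 without 1 mouse, 0.0117 with mitochondrial UMIs at most 20%, 0.0514 with Plvap at least 2 UMIs, 0.0861 with thinning, 0.642 without Sox17 or Gja5 cells and 0.0570 without Aqp1, Slc14a1 or Scin cells. Cd36 was -0.00144 with DESeq2, -0.00335 with its size factors, -0.00295 with no filter, -0.200 to 0.164 without 1 mouse, -0.152 with Col1a1 allowed, -0.548 with thinning, -0.577 without Sox17 or Gja5 cells, -0.0490 with Ehd3 allowed, -0.208 without Aqp1, Slc14a1 or Scin cells and -0.0170 without cell cycle cells. Icam1 was -0.10 with thinning and -0.10 without Sox17 or Gja5 cells, where Cldn5 was 0.571 and B2m -0.0493. Nr3c1 was 0.18 without Aqp1, Slc14a1 or Scin cells. The cause of these moves was not tested, except that fewer genes and UMIs enter under thinning and fewer cells under the limits on cells. Genes of a few CPM, such as Mki67 in the sham mice, rest on few UMIs.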
